A study of Homo sapiens with 18 samples.

Results

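Described here are 10 genes of the NODAL pathway among the 27130 gene symbols counted in each library. They are the ligands NODAL and GDF3, the coreceptor TDGF1, the type I receptors ACVR1B and TGFBR1, the extracellular inhibitors LEFTY1 and LEFTY2, the transcription factor FOXH1 that acts with the signal transducers, and the intracellular inhibitors SKIL and SMAD7. The rule lists them by name for their known places in the pathway, and they were chosen with earlier results of these data known. Counts of them set beside shares of all genes are therefore a description and no test of the set. The study edited ZNF263, which encodes a DNA-binding zinc finger protein, with Cas9 in the established human embryonic stem cell lines H1 (WA01) and H9 (WA09), and sequenced polyadenylated RNA. The replicated groups held 3 libraries each of unedited H1, the homozygous H1 clone 1-10, unedited H9 and the homozygous H9 clones 9-1 and 9-D. A separate set of 3 H1 libraries held 1 each of wild type, clone 1-10 and clone 1-5, whose knockout is heterozygous. Each edited group is 1 clone, so what is particular to a clone cannot be told apart from the edit. The labels do not say whether libraries of a group came from separate cultures, so p-values measure only the spread between these libraries.

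NODAL is a secreted ligand of the TGF-beta family. With the coreceptor TDGF1, also called CRIPTO, it binds activin receptors, of which ACVR1B is a type I receptor, and the receptors phosphorylate SMAD2 and SMAD3. These enter the nucleus with SMAD4 and act at target genes with partners such as FOXH1. Among the targets are NODAL itself and its own inhibitors LEFTY1 and LEFTY2, so the pathway carries both positive and negative feedback. In human embryonic stem cells, activin and NODAL signalling supports the primed pluripotent state, and stronger signalling leads to mesendoderm.

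Promoters are shown for 3 genes, of which NODAL and GDF3 were higher and ACVR1B lower in the edited H9 clones. SKIL, also higher there, has an entry that is not shown, and its window held none of the letters searched below. ACVR1B has 2 entries, of which the first was used. RefSeq (GRCh38.p14) gave an entry for 6 of the 10 genes, namely NODAL, GDF3, ACVR1B, TGFBR1, SKIL and SMAD7, and not for LEFTY1, LEFTY2, TDGF1 and FOXH1. Each window runs 5′ to 3′ from 250 bases before to 50 bases after the start of the gene. Capitals mark GGAGGAGG or its reverse complement CCTCCTCC, letters taken from the purine-rich motif known for ZNF263.
NODAL promoter, chr10:70441632-70441931, minus strand: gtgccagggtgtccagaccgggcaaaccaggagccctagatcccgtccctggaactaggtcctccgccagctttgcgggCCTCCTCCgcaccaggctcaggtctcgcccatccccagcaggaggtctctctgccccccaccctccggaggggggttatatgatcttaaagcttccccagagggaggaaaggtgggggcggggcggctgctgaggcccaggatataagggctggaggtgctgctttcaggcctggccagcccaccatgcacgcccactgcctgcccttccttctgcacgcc
GDF3 promoter, chr12:7695726-7696025, minus strand: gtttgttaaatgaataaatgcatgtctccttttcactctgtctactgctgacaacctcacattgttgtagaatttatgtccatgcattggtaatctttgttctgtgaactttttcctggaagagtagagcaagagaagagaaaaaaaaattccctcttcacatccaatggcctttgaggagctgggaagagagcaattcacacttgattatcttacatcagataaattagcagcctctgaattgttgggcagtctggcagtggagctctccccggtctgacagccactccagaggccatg
ACVR1B promoter, chr12:51951449-51951748, plus strand: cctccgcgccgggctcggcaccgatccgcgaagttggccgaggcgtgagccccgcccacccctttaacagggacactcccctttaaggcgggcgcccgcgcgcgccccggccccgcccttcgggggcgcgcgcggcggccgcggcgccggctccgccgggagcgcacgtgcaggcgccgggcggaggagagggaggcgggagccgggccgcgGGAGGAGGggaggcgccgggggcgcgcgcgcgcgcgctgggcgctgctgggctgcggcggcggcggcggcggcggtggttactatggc
The motif, searched on both strands, stood in 2 of the 6 windows, NODAL (171 bases before the start, reverse) and ACVR1B (38 bases before, forward), and in 10.4% of all 27305 RefSeq windows of the same length. No window of the 6 held AATCCACA or AATACACA, letters bound by FOXH1, which stood in 0.798% and 0.747% of all windows. None held the SMAD letters GTCTAGAC or CAGACAG (0.201% and 5.99% of all windows) or the octamer ATGCAAAT (1.8%). A match of letters is a description of the window and not evidence of binding.

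Total counts were 9.66 to 21 M per library, and a count of 0 would allow up to 3 counts. ZNF263 RNA was lower in both lines but largely present. Its log2 fold change was -0.27 (SE 0.0756, edgeR adjusted p = 0.0156) in H1 clone 1-10 and -0.23 (SE 0.0615, edgeR adjusted p = 0.0046) in both H9 clones together. In H1 it did not pass when wild-type replicate 2 (edgeR adjusted p = 0.0545) or clone 1-10 replicate 1 (0.0971) was left out. The labels do not give the edited part of the gene, so its RNA cannot tell if protein remained. None of the 6 pluripotent stem cell markers was at 0 in any library. Their summed level was 6396 to 6876 CPM in H1 wild type, 7042 to 7474 in clone 1-10, 5051 to 5187 in H9 wild type and 5879 to 6135 over both H9 clones. The 6 neuroectoderm markers summed to 25.4 to 34.1 CPM in H1 wild type and 8.01 to 11 in clone 1-10, and to 4.12 to 6.07 in H9 wild type and 1.67 to 3.68 over both H9 clones. The 6 definitive endoderm markers summed to 6.06 to 11.5 CPM over the 15 replicated libraries. The 6 trophoblast and amnion markers, mostly KRT7, summed to 9.70 to 10.6 CPM in H1 wild type and 5.36 to 5.79 in clone 1-10. In H9 they summed to 9.44 to 9.69 CPM in wild type and 5.99 to 8.92 over both clones. The 6 mesoderm markers, mostly KDR, summed to 193 to 195 CPM in H1 wild type and 176 to 189 in clone 1-10, and to 250 to 302 over the H9 libraries, where wild type overlapped with 9-1. The 6 fibroblast and feeder markers summed to 573 to 912 CPM over the 15 replicated libraries. Wild type overlapped with clone 1-10 in H1 and with 9-D in H9, and lay above 9-1, at 825 to 868 CPM against 743 to 818. Of the trophoblast and mesoderm markers, CGA and MSGN1 were at 0 in 16 of 18 libraries each. The pluripotent, neuroectoderm and trophoblast sums in both lines, and the mesoderm sum in H1, separated wild type from clones without overlap, as did the fibroblast sum for 9-1 and the mesoderm sum for 9-D. Members of a list did not all move alike. In H9, mean KRT7 was 7.81 CPM in wild type, 4.82 in 9-1 and 5.2 in 9-D. GATA3 went the other way, at 0.4, 0.607 and 0.731, as did TFAP2A, at 0.156, 0.427 and 0.461. From H1 wild type to clone 1-10, mean KDR went from 188 to 172 CPM and PDGFRA from 4.8 to 7.58. Of the fibroblast markers in H9, mean COL1A1 was 162 CPM in wild type, 237 in 9-1 and 256 in 9-D. THY1, the largest part of the sum, went the other way, at 469, 383 and 419, as did COL1A2, at 219, 172 and 199. The part of these sums in the results was not tested. In bulk RNA, fewer cells of a type and less RNA per cell cannot be told apart.

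In the H9 clones, the ligands NODAL and GDF3, the inhibitors LEFTY1, LEFTY2 and SKIL, the coreceptor TDGF1 and FOXH1 were all higher than in wild type, and the receptor ACVR1B was lower. NODAL rose most on the log2 scale, 2.74-fold, and ACVR1B fell to 0.647 of its wild-type level. With clones 9-1 and 9-D together, 9 of 10 genes passed at 0.05 in edgeR (quasi-likelihood F test, p-values adjusted by Benjamini-Hochberg), 7 higher and 2 lower. Of all 15411 genes tested in this comparison, 29.7% passed, 14.4% higher and 15.3% lower. The median log2 fold change was 0.51 over the 10 genes and -0.00 over all genes tested. In 7 genes each of the 6 edited libraries was above each wild-type library, and in 1 each was below, where 13% and 13.2% of genes did so. Levels below are library-scaled read counts (CPM, the count of a gene relative to all counts of its library after TMM scaling) of libraries 1, 2 and 3. They are not corrected for gene length, so they are compared within a gene only.

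**Figure D1:**
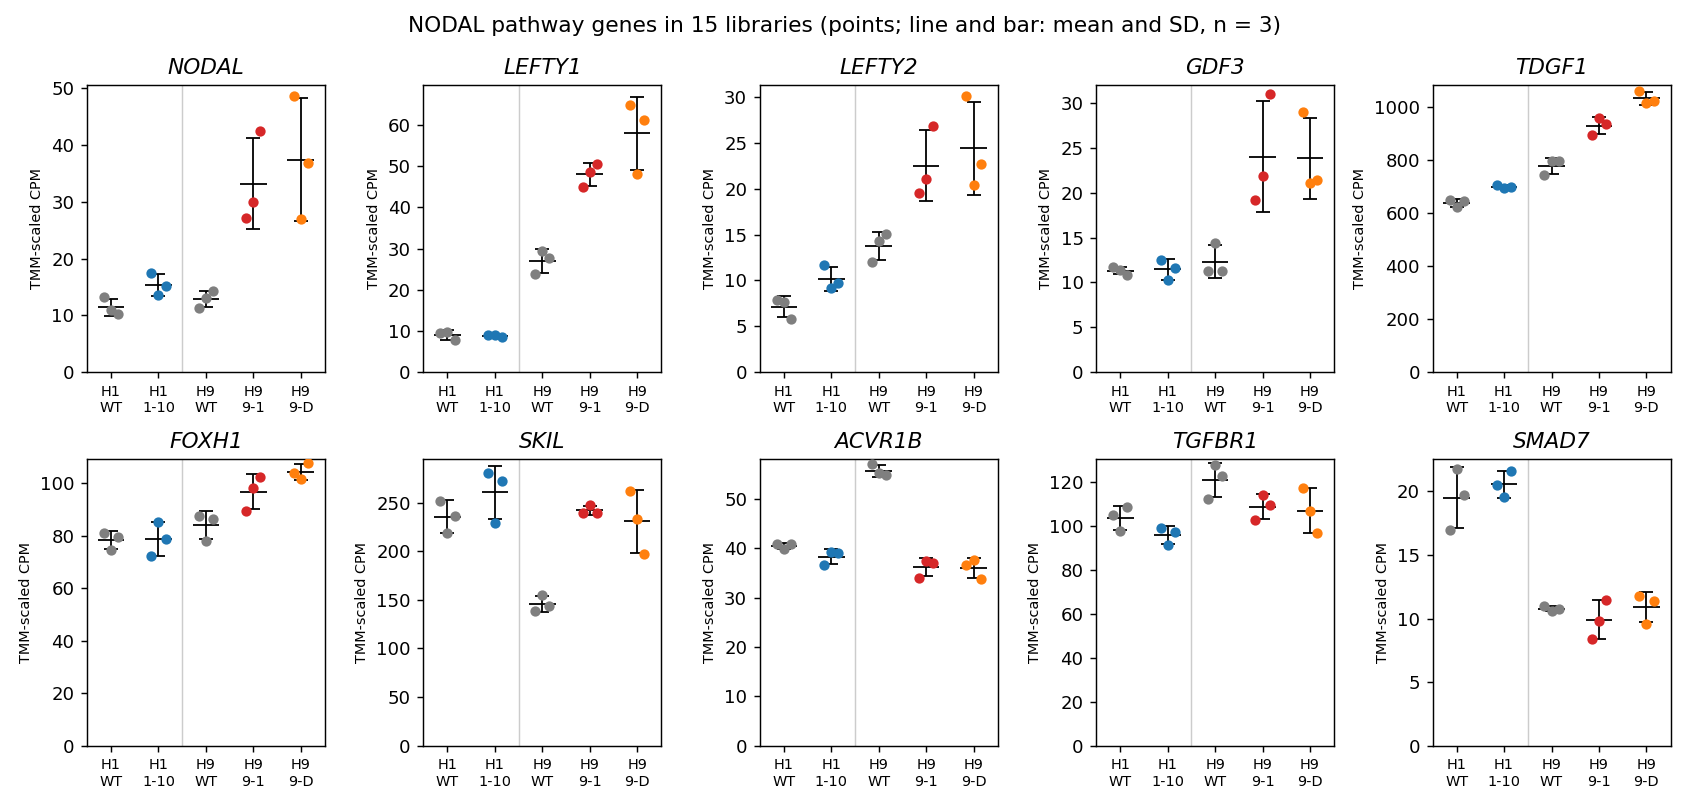
TMM-scaled CPM of each of the 10 genes (vertical axis of each panel, linear from 0) in the 15 replicated libraries, grouped along the horizontal axis as H1 wild type, H1 clone 1-10, H9 wild type, H9 clone 9-1 and H9 clone 9-D. Points are libraries, and the line and bar are the mean and SD (n = 3). In H9, 7 genes lie above and ACVR1B below wild type in all 6 edited libraries, whereas in H1 the groups lie closer together.

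NODAL, the ligand that names the pathway, stood at 11.3, 13.1 and 14.2 CPM in H9 wild type, 27.2, 30.03 and 42.4 in clone 9-1 and 48.7, 26.9 and 36.8 in clone 9-D. The lowest edited library, 9-D library 2, was well above the highest wild-type library, and 9-1 library 3 and 9-D library 1 stood above the other edited libraries. The mean rose from 12.9 ± 1.45 CPM (SD, n = 3) to 35.3 ± 8.89 (n = 6), a log2 fold change of 1.45 (SE 0.143, edgeR adjusted p = 1.82e-09). GDF3, a related ligand made by pluripotent cells, stood at 11.3, 14.4 and 11.3 CPM in wild type, 19.2, 21.8 and 31 in 9-1 and 29, 21.1 and 21.4 in 9-D. The groups did not overlap, and the same 2 edited libraries were the highest. Its log2 fold change was 0.96 (SE 0.124, edgeR adjusted p = 4.34e-07), with a mean of 12.3 ± 1.82 CPM in wild type and 23.9 ± 4.85 in the clones.

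TDGF1, the membrane-anchored coreceptor of NODAL and GDF3, stood at 745, 799 and 796 CPM in H9 wild type, 896, 961 and 938 in 9-1 and 1063, 1018 and 1023 in 9-D. All edited libraries were above wild type, and all of 9-D were above all of 9-1. The increase was modest, 1.26-fold, and exceeded the spread between libraries, with a log2 fold change of 0.33 (SE 0.0514, edgeR adjusted p = 8.57e-06). Reads of TDGF1 can be shared with its processed pseudogene TDGF1P3: 40.7% of the 50-base windows of the TDGF1 transcript occur in the TDGF1P3 transcript. Counts given to TDGF1P3 were 0.57 to 0.88% of those given to TDGF1 in H1 and 3.96 to 4.44% in H9. TDGF1P3 had a log2 fold change of 0.31 (SE 0.0721, edgeR adjusted p = 0.0013) in the H9 clones.

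ACVR1B, the type I receptor also called ALK4, stood at 57, 55.2 and 54.9 CPM in H9 wild type, 34.1, 37.5 and 37.1 in 9-1 and 36.6, 37.6 and 33.8 in 9-D. Libraries within each group lay close together, and no edited library came near wild type. The mean fell from 55.7 ± 1.14 to 36.1 ± 1.72 CPM, a log2 fold change of -0.63 (SE 0.0585, edgeR adjusted p = 5.77e-10). The receptor thus moved against its ligand and coreceptor. TGFBR1, the type I receptor of TGF-beta also called ALK5, stood at 113, 128 and 123 CPM in wild type, 103, 114 and 109 in 9-1 and 117, 107 and 96.9 in 9-D, and the groups overlapped. Its log2 fold change of -0.17 (SE 0.0568, edgeR adjusted p = 0.0232) passed, but it did not without wild-type replicate 2 (adjusted p = 0.143), wild-type replicate 3 (0.0848) or 9-1 replicate 1 (0.0535, edgeR).

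LEFTY1, a secreted inhibitor that keeps NODAL from its receptors, stood at 23.7, 29.4 and 27.8 CPM in H9 wild type, 45.1, 48.5 and 50.5 in 9-1 and 64.8, 48 and 61.2 in 9-D. Every edited library was above every wild-type library, with a log2 fold change of 0.97 (SE 0.0947, edgeR adjusted p = 1.46e-09), or 1.97-fold. LEFTY2, its close paralogue with the same role, stood at 12.1, 14.3 and 15 CPM in wild type, 19.5, 21.1 and 26.9 in 9-1 and 30.1, 20.4 and 22.7 in 9-D. The groups did not overlap, and the log2 fold change was 0.76 (SE 0.113, edgeR adjusted p = 3.7e-06). The negative feedback genes of the extracellular step thus rose together with the ligand. Reads of the paralogues can be shared, since 31.3% of 50-base windows of the LEFTY1 transcript occur in LEFTY2 and 22% of those of LEFTY2 in LEFTY1, so the split between them is uncertain.

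SKIL, also called SnoN, binds SMAD proteins and represses their targets, and it is itself a target of the pathway. It stood at 139, 155 and 144 CPM in H9 wild type, 239, 247 and 239 in 9-1 and 262, 233 and 197 in 9-D. The groups did not overlap, and 9-D spread more widely than 9-1. The log2 fold change was 0.69 (SE 0.0637, edgeR adjusted p = 4.55e-10), or 1.62-fold. SMAD7, an inhibitory SMAD that blocks the receptors and is induced by TGF-beta, stood at 11, 10.6 and 10.7 CPM in wild type, 8.43, 9.82 and 11.5 in 9-1 and 11.8, 9.55 and 11.4 in 9-D. Its groups overlapped, and its log2 fold change of -0.05 (SE 0.107, edgeR adjusted p = 0.759) did not pass, with a 95% interval of -0.26 to 0.16. FOXH1 stood at 87.4, 77.9 and 86.4 CPM in wild type, 89.4, 98 and 102 in 9-1 and 104, 101 and 107 in 9-D. The lowest edited library was only just above the highest wild-type library, and the log2 fold change was 0.25 (SE 0.0576, edgeR adjusted p = 0.000977).

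The 2 H9 clones were close to each other in these genes. Clone 9-1 had 8 of 10 genes past the threshold, 7 higher and 1 lower (26.3% of all genes tested, 12.8% higher and 13.5% lower; no overlap with wild type in 7 higher and 1 lower, as in 20.3% and 19.3% of genes), and clone 9-D had 9, 7 higher and 2 lower (23.5% of all genes, 11.5% higher and 12% lower; no overlap in 7 and 1, as in 17.6% and 17.8% of genes). The 2 comparisons share the wild-type libraries. The log2 fold change of NODAL was 1.36 in 9-1 and 1.54 in 9-D, that of LEFTY1 0.83 and 1.11, and that of ACVR1B -0.62 and -0.64. TGFBR1 made the difference in count, at -0.16 (SE 0.0661, edgeR adjusted p = 0.0767) in 9-1 and -0.18 (SE 0.0661, edgeR adjusted p = 0.0417) in 9-D.

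Tested against each other in edgeR, the H9 clones differed in 0 of the 10 genes, against 0.305% of all genes. Only LEFTY1 and TDGF1 had an unadjusted edgeR p below 0.05, at 0.00233 and 0.00655, and DESeq2 called 0. The share of all genes below an unadjusted p of 0.05 is not reported here. TDGF1 was the only gene of the 10 whose libraries did not overlap between clones, higher in 9-D, as 6.03% of genes were higher and 5.64% lower. The difference of 9-D from 9-1 was 0.28 (SE 0.0844, edgeR adjusted p = 0.317) for LEFTY1 and 0.15 (SE 0.0527, edgeR adjusted p = 0.512) for TDGF1. Without 9-D replicate 2, the difference of LEFTY1 was 0.40 and passed (edgeR adjusted p = 0.0247). For NODAL the interval of the difference was -0.07 to 0.44, for GDF3 -0.24 to 0.24 and for ACVR1B -0.16 to 0.13 on the log2 scale, so differences of these sizes between the clones remain possible.

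**Figure D2:**
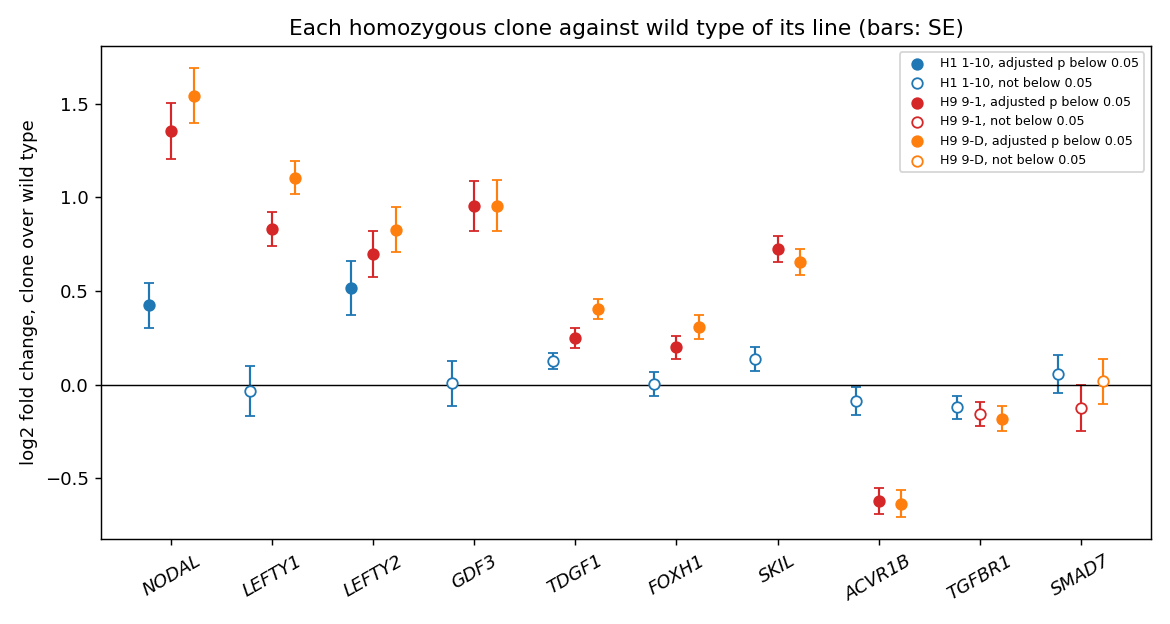
Log2 fold change of each homozygous clone over wild type of its line (vertical axis) for the 10 genes (horizontal axis). Bars are SE, filled points have an edgeR adjusted p below 0.05 and open points do not. Clones 9-1 and 9-D of H9 lie side by side for each gene, and clone 1-10 of H1 has filled points for NODAL and LEFTY2 only.

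In H1 clone 1-10, NODAL and LEFTY2 were moderately higher and the other 8 genes did not pass. In edgeR, 2 genes passed, both higher, where 12.3% of all 14897 genes passed, 5.01% higher and 7.25% lower. The median log2 fold change was 0.03 over the 10 genes and 0.00 over all. In 3 genes (NODAL, LEFTY2 and TDGF1) each clone library was above each wild-type library and in 1 (ACVR1B) each was below, where 14.6% and 14.4% of genes did so.

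NODAL stood at 13.1, 10.9 and 10.3 CPM in H1 wild type and 17.4, 13.6 and 15.1 in clone 1-10. The lowest clone library was just above the highest wild-type library. The log2 fold change was 0.42 (SE 0.121, edgeR adjusted p = 0.0182), or 1.34-fold. LEFTY2 stood at 7.85, 7.67 and 5.79 CPM in wild type and 11.6, 9.21 and 9.7 in clone 1-10, and the groups did not overlap. Its log2 fold change was 0.52 (SE 0.143, edgeR adjusted p = 0.0151). Neither call was stable: without wild-type replicate 3 the edgeR adjusted p was 0.119 for NODAL and 0.134 for LEFTY2, and without clone 1-10 replicate 1 it was 0.154 and 0.126. Without wild-type replicate 2, NODAL had an edgeR adjusted p of 0.0506, and in DESeq2 the adjusted p was 0.0635 for each gene. The authors' deposited table gives NODAL a log2 fold change of 0.43 (adjusted p = 0.0384, DESeq2) and LEFTY2 0.53 (adjusted p = 0.0563, DESeq2).

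LEFTY1 did not pass in H1. It stood at 9.54, 9.82 and 7.67 CPM in wild type and 9.01, 8.92 and 8.54 in clone 1-10, with overlapping groups and a log2 fold change of -0.03 (SE 0.133, edgeR adjusted p = 0.909). The 95% interval of -0.29 to 0.23 lies below the change of LEFTY1 in H9. With reads of the paralogues summed, the log2 fold change of the sum was 0.23 (edgeR adjusted p = 0.16), which did not pass. GDF3 stood at 11.7, 11.4 and 10.9 CPM in wild type and 12.5, 10.3 and 11.6 in the clone, and its log2 fold change was 0.01 (SE 0.12, edgeR adjusted p = 0.983).

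TDGF1 stood at 649.7, 623 and 647 CPM in H1 wild type and 706, 694 and 701 in clone 1-10, all clone libraries above wild type. Its log2 fold change of 0.12 (SE 0.0429, edgeR adjusted p = 0.0536) was next to the threshold and passed in DESeq2 (adjusted p = 0.0167), with no filter on low counts (edgeR adjusted p = 0.0363) and without clone 1-10 replicate 2 (edgeR adjusted p = 0.0227). ACVR1B stood at 40.8, 39.8 and 40.9 CPM in wild type and 36.6, 39.3 and 39.1 in the clone. Although the groups did not overlap, the log2 fold change of -0.09 (SE 0.0733, edgeR adjusted p = 0.488) did not pass. The other genes overlapped between groups: SKIL at 0.14 (SE 0.0617, edgeR adjusted p = 0.148), TGFBR1 at -0.12 (SE 0.0603, edgeR adjusted p = 0.2), SMAD7 at 0.06 (SE 0.0998, edgeR adjusted p = 0.77) and FOXH1 at 0.00 (SE 0.0652, edgeR adjusted p = 0.987). SKIL passed without clone 1-10 replicate 2 (edgeR adjusted p = 0.00249).

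The separate H1 libraries, with 1 library per group and so no test, again had NODAL and LEFTY2 higher in clone 1-10, and here LEFTY1 as well. Intervals are exact 95% counting intervals and cover counting error only. NODAL stood at 8.37 CPM in wild type, 18 in the heterozygous clone 1-5 and 13.6 in clone 1-10, log2 ratios to wild type of 1.1 (0.75 to 1.46) and 0.70 (0.33 to 1.07). LEFTY1 stood at 6.68, 18.1 and 12 CPM, log2 ratios of 1.44 (1.06 to 1.83) and 0.85 (0.44 to 1.26). LEFTY2 stood at 6.5, 13.1 and 12.4 CPM, log2 ratios of 1.01 (0.60 to 1.42) and 0.93 (0.52 to 1.35). These 3 genes were at least 1.5-fold higher in each clone, while 1.54% of 12894 genes in clone 1-5 and 0.864% of 12841 genes in clone 1-10 were, counting genes with at least 50 counts over both libraries. None of the 10 was at least 1.5-fold lower, against 2.08% and 2.52% of genes.

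In this set both clones share the single wild-type library, whose NODAL, LEFTY1 and LEFTY2 counts were 94, 75 and 73. Its levels of NODAL, 8.37 CPM, and LEFTY1, 6.68 CPM, were below those of all replicated wild-type libraries, which were scaled separately. The latter stood at 13.1, 10.9 and 10.3 CPM for NODAL and at 9.54, 9.82 and 7.67 for LEFTY1. LEFTY2, at 6.5 CPM, lay within their range of 5.79 to 7.85. GDF3 had log2 ratios of 0.32 (-0.05 to 0.69) in clone 1-5 and -0.02 (-0.40 to 0.38) in clone 1-10. SKIL had log2 ratios of 0.13 (0.04 to 0.22) and 0.33 (0.24 to 0.42), and ACVR1B of -0.18 (-0.37 to 0.01) and -0.16 (-0.35 to 0.03). TDGF1, FOXH1, TGFBR1 and SMAD7 lay between -0.15 and 0.15 in both clones. The interval of TDGF1 lay above 0 in both clones (0.05 to 0.14 and 0.02 to 0.11). That of FOXH1 lay below 0 in clone 1-10 (-0.28 to -0.02).

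**Figure D3:**
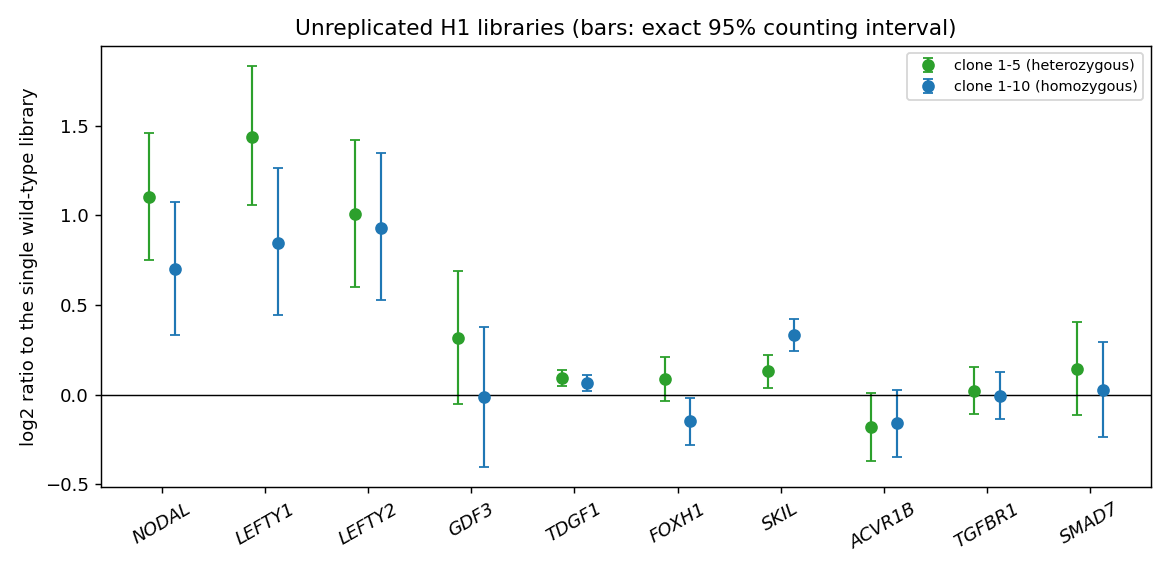
Log2 ratio of the single libraries of clone 1-5 (heterozygous) and clone 1-10 (homozygous) to the single H1 wild-type library (vertical axis) for the 10 genes (horizontal axis). Bars are exact 95% counting intervals and hold no variation between cultures. NODAL, LEFTY1, LEFTY2 and, with smaller ratios, SKIL and TDGF1 lie above 0 with their whole intervals in both clones.

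The knockout effect was larger in H9 than in H1 for several of these genes, by a test of the difference itself over 15 libraries. Of the 10 genes, 6 passed edgeR, 5 with a more positive and 1 with a more negative effect in H9, against 9.21% of 15802 genes, 5.21% and 4%. The difference of log2 fold changes (H9 minus H1) was 1.02 (SE 0.215, edgeR adjusted p = 0.000898) for NODAL, 1.00 (SE 0.159, edgeR adjusted p = 1.33e-05) for LEFTY1 and 0.95 (SE 0.192, edgeR adjusted p = 0.000556) for GDF3. SKIL differed by 0.55 (SE 0.0959, edgeR adjusted p = 5.65e-05), ACVR1B by -0.54 (SE 0.0918, edgeR adjusted p = 3.69e-05) and TDGF1 by 0.20 (SE 0.062, edgeR adjusted p = 0.0306). TDGF1 lost its call in 8 of 15 fits that each left out 1 library, with edgeR adjusted p of up to 0.114. LEFTY2, whose call in H1 was not stable, did not differ past the threshold, at 0.24 (SE 0.196, edgeR adjusted p = 0.519) and a 95% interval of -0.14 to 0.63. FOXH1 at 0.25 (SE 0.0872, edgeR adjusted p = 0.0659), TGFBR1 at -0.05 (SE 0.0871, edgeR adjusted p = 0.807) and SMAD7 at -0.11 (SE 0.147, edgeR adjusted p = 0.723) did not pass. FOXH1 passed in 3 of 15 fits that left out 1 library, with the smallest edgeR adjusted p of 0.0191 without clone 1-10 replicate 2. Line, clone and any batch of library making cannot be told apart in this contrast.

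The unedited lines differed in many genes of the whole set. Among the 10, the inhibitors, receptors and coreceptor passed the threshold, and NODAL, GDF3 and FOXH1 did not. In edgeR, 7 of 10 genes passed between H9 and H1 wild type, 5 higher and 2 lower in H9, where 52.7% of all genes passed, 27.1% higher and 25.6% lower. The same 7 did not overlap between lines, as 30% of genes were higher and 28.3% lower without overlap. LEFTY1 was 2.99-fold higher in H9, at 27 ± 2.93 against 9.01 ± 1.17 CPM (SD, n = 3 each), a log2 difference of 1.58 (SE 0.114, edgeR adjusted p = 4.48e-15). LEFTY2 was 1.94-fold higher, at 13.8 ± 1.55 against 7.11 ± 1.14 CPM (edgeR adjusted p = 1.02e-06). NODAL itself was at 12.9 ± 1.45 and 11.4 ± 1.5 CPM, a log2 difference of 0.18 (SE 0.17, edgeR adjusted p = 0.398). SKIL and SMAD7 were lower in H9, at log2 differences of -0.69 (SE 0.073, edgeR adjusted p = 1.56e-10) and -0.86 (SE 0.112, edgeR adjusted p = 2.24e-08). ACVR1B, TDGF1 and TGFBR1 were higher, by 0.46, 0.29 and 0.22 on the log2 scale (largest edgeR adjusted p 0.00417, TGFBR1). Line and any batch of library making cannot be told apart here.

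For SKIL and ACVR1B, the edited H9 libraries lay near the level of H1. SKIL stood at 235 ± 16.7 CPM in H1 wild type, 146 ± 8.3 in H9 wild type and 236 ± 21.8 in the H9 clones. ACVR1B stood at 40.5 ± 0.609, 55.7 ± 1.14 and 36.1 ± 1.72 CPM in the same groups. The order of mean levels was H9 wild type, clone 9-D, H1 wild type, clone 9-1 and clone 1-10 for SKIL, from low to high, and clone 9-D, clone 9-1, clone 1-10, H1 wild type and H9 wild type for ACVR1B. For SKIL, H9 wild type alone stood clear of all other groups. For ACVR1B, H9 wild type stood far above the others, and H1 wild type lay just above clones 1-10, 9-1 and 9-D, which overlapped. For NODAL the order was H1 wild type, H9 wild type, clone 1-10, 9-1 and 9-D, and the clear step lay between clone 1-10 at 15.4 ± 1.92 and 9-1 at 33.2 ± 8.09 CPM. For LEFTY1 the steps were between lines first, with both H1 groups below H9 wild type, and then between H9 wild type and its clones.

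The share of LEFTY1 among counts of LEFTY1 and LEFTY2 was higher in every H9 library than in every H1 library. Its differences between clones and wild type had opposite signs in the lines, and neither passed a test. It was 56 ± 1.08% in H1 wild type, 46.5 ± 2.8% in clone 1-10, 66.2 ± 1.2% in H9 wild type, 68.2 ± 2.6% in 9-1 and 70.4 ± 2.34% in 9-D (SD, n = 3 each). In H1 the groups did not overlap (54.8 to 57% against 43.6 to 49.2%), with a difference of -9.44 percentage points and an exact two-sided permutation p of 0.1, the smallest that 20 regroupings can give. In H9 the difference was 3.17 points (exact two-sided permutation p = 0.0952, 84 regroupings). In H1 this design could not have reached 0.05. The single libraries had 50.7% in wild type, 58.1% in clone 1-5 and 49.2% in clone 1-10.

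**Figure D4:**
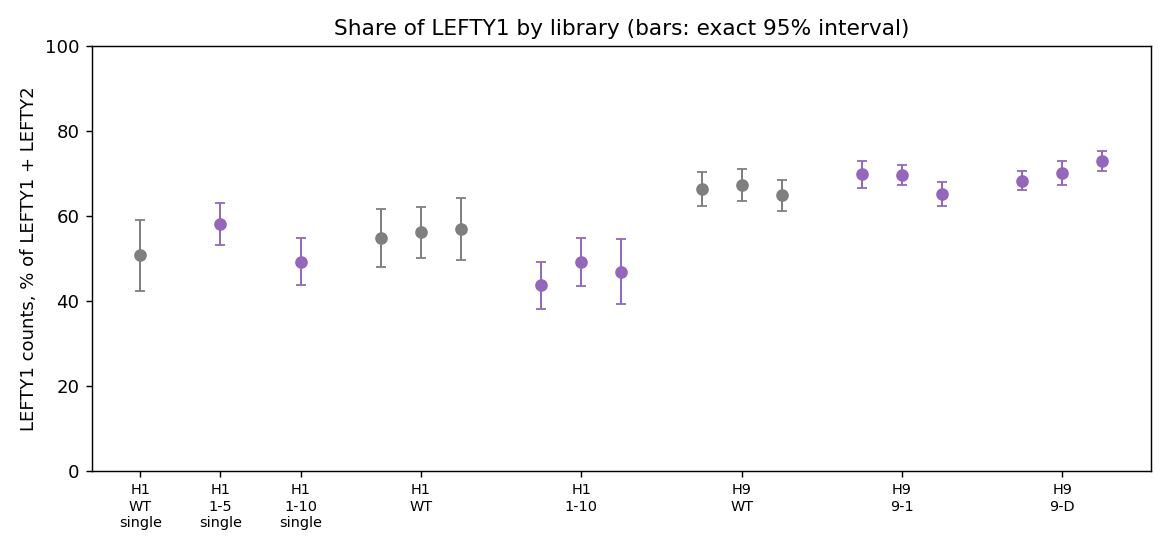
LEFTY1 counts as a percentage of LEFTY1 and LEFTY2 counts together (vertical axis, 0 to 100) in each of 18 libraries by group (horizontal axis), with exact 95% intervals that cover counting error only. The 3 libraries of H1 clone 1-10 lie below those of H1 wild type, and all H9 libraries lie above both.

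Of the rest of the pathway, 46 genes were listed by role. In the H9 clones, 39 of them were tested and 9 were higher and 1 lower in edgeR, where 14.4% of all genes were higher and 15.3% lower. In H1 clone 1-10, 40 were tested and 2 were higher and 6 lower, where 5.01% of all genes were higher and 7.25% lower. Among ligands and convertases, 3 of 7 tested were higher in H9. INHBE rose by 0.61 (SE 0.0799, edgeR adjusted p = 5e-07), INHBA, whose product forms activin A, by 0.74 (SE 0.13, edgeR adjusted p = 4.84e-05) and TGFB1 by 0.39 (SE 0.0765, edgeR adjusted p = 0.000219) on the log2 scale. In H1, INHBA alone of 7 was higher, with a log2 fold change of 0.94 (SE 0.206, edgeR adjusted p = 0.002). GDF1 and CFC1B were at 0 in all 18 libraries, and CFC1 in 16.

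Other receptors and the transducers did not pass in H9. There, 0 of 5 receptors and coreceptors and 0 of 6 transducers passed edgeR with both clones together, 0 of each had an unadjusted p below 0.05, and DESeq2 called 0. Of all genes tested, 29.7% passed edgeR in H9 and 12.3% in H1. ACVR2A and ACVR2B, type II receptors of activin and NODAL, had log2 fold changes of -0.09 and -0.04 in H9 and 0.04 and 0.02 in H1. SMAD2, SMAD3 and SMAD4, the transducers of the signal, had log2 fold changes of 0.09, -0.06 and 0.01 in H9 and 0.08, 0.12 and 0.02 in H1. In H1, 0 of 6 transducers passed edgeR, 1 had an unadjusted p below 0.05 and DESeq2 called 0, and TGFBR3, the TGF-beta coreceptor betaglycan, was lower at -0.46 (SE 0.141, edgeR adjusted p = 0.0296). TGFBR3 lost its call in DESeq2 (adjusted p = 0.128). In the single library of clone 1-10 its log2 ratio to wild type was 0.24 (counting interval -0.25 to 0.73).

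Of 4 extracellular and membrane inhibitors tested, FST, the activin antagonist follistatin, moved in opposite directions in the lines. Its log2 fold change was -0.50 (SE 0.1, edgeR adjusted p = 0.000898) in H1 and 0.20 (SE 0.0733, edgeR adjusted p = 0.0383) in H9, and the difference was 0.70 (SE 0.128, edgeR adjusted p = 0.00015). In H9, FST lost its call in DESeq2 (adjusted p = 0.0535) and in 5 of 9 edgeR fits that left out 1 library. CER1, a secreted NODAL inhibitor, had log2 fold changes of -0.30 (SE 0.205, edgeR adjusted p = 0.379) in H1 and 0.45 (SE 0.27, edgeR adjusted p = 0.218) in H9. Of 8 intracellular inhibitors, NEDD4L, a ubiquitin ligase for activated SMAD2 and SMAD3, was higher in H9 at 0.31 (SE 0.0562, edgeR adjusted p = 8.84e-05), and 0 passed edgeR in H1, where 1 had an unadjusted p below 0.05 and DESeq2 called 0. The share of all genes that passed edgeR was 29.7% in H9 and 12.3% in H1.

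Of the target genes, 4 of 9 tested in H9 were higher and 1 was lower, beside 14.4% and 15.3% of all genes. NANOG, a pluripotency factor that SMAD2 and SMAD3 activate in these cells, rose by 0.43 (SE 0.0608, edgeR adjusted p = 1.77e-06) and FOXA2 by 1.85 (SE 0.336, edgeR adjusted p = 7.62e-05) on the log2 scale. FOXA2 rose from 0.452 ± 0.167 to 1.66 ± 0.422 CPM, so its level stayed low. In H1, 1 of 10 was higher and 4 were lower, beside 5.01% and 7.25% of all genes. EOMES, a mesendoderm factor, was at 7.77, 7.48 and 6.88 CPM in wild type and 1.93, 0.933 and 2.85 in clone 1-10, a log2 fold change of -2.07 (SE 0.229, edgeR adjusted p = 6.66e-08). MIXL1 had -1.71 (SE 0.214, edgeR adjusted p = 6.94e-07), and T (brachyury) went from 19, 11 and 12 counts in the wild-type libraries to 1, 2 and 1 in the clone. CTGF was lower at -0.21 (SE 0.0647, edgeR adjusted p = 0.0301), and in H1 it lost its call in DESeq2 (adjusted p = 0.0574). In the separate single libraries EOMES was at 1.16 CPM in wild type, 1.15 in clone 1-5 and 1.35 in clone 1-10, so no fall was seen there. Nor was one seen for MIXL1, at 0.802, 1.83 and 1.2 CPM in the same order, or T, at 0, 4 and 4 counts. CTGF was higher there. Its log2 ratio to wild type was 0.75 (0.64 to 0.87) in clone 1-5 and 0.34 (0.22 to 0.46) in clone 1-10. These intervals cover counting error only.

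Within the H9 clones, 2 libraries carried the highest ligand levels. These were 9-1 library 3 and 9-D library 1, the highest of their clone for NODAL, LEFTY1, LEFTY2 and GDF3. The same libraries were the highest for mesendoderm targets. EOMES was at 6.37 and 2.94 CPM in them and at 0.362 to 0.920 in the other 4 edited libraries, and MIXL1 at 9.63 and 6.22 against 1.33 to 2.71. H9 wild type had EOMES at 1.61, 1.65 and 1.16 and MIXL1 at 3.48, 4.26 and 2.45 CPM. CER1 was at 21.3 and 12.5 CPM in the 2 libraries and at 5.38 to 7.34 in the other 4. These libraries were noticed after their values were seen, and the cause was not tested.

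Leaving both libraries out, an alternative chosen after seeing the data, left 9 of the 10 genes past the threshold in H9, as with all libraries, and lowered the count that differed between lines from 6 to 5. Of all genes, 3594 then passed edgeR in H9 and 1279 in the difference between lines, against 4574 (29.7%) and 1455 (9.21%) with all libraries. The share of all genes in the reduced fits is not reported here. In H9 the log2 fold change of NODAL was then 1.23 (edgeR adjusted p = 4.33e-11), of LEFTY1 0.91, of LEFTY2 0.60 and of GDF3 0.77. The difference between lines was then 0.80 for NODAL (edgeR adjusted p = 0.000612) and 0.19 for TDGF1, which no longer passed (edgeR adjusted p = 0.0794). The rise of NODAL, LEFTY1, LEFTY2 and GDF3 in H9 was therefore present in the other 4 edited libraries.

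Across the 15 replicated libraries, log2 CPM centred within each line showed which genes had a pattern most like that of NODAL. Among 15801 genes the 5 highest Pearson correlations with NODAL included those of CA4 (0.96), LITAF (0.96), NANOG (0.95) and HHIP (0.94). LEFTY2 was 7th (0.94), GDF3 22nd (0.93), LEFTY1 31st (0.93), TDGF1 61st (0.91), SKIL 122nd (0.89) and FOXH1 1017th (0.74). SMAD7 (0.11) and TGFBR1 (-0.48) did not follow NODAL, and ACVR1B (-0.90) was near the other end, at rank 15711. In the 9 H9 libraries alone, LEFTY2 was the gene most like NODAL (0.99). For TDGF1 the most like were SMS (0.97), CACNG4 (0.96), FZD7 (0.95), KPNA2 (0.95) and PRDX4 (0.95), and NODAL was 30th. These values describe libraries that share the step between wild type and clones, and many genes share that step.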

How the data were processed

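Per the labels, RNA was extracted with TRIzol and poly(A) libraries were made with NEBNext kits. The authors deposited whole read counts per gene symbol. Per the submitters' processing notes, STAR, hg19, featureCounts and DESeq2 were used, with versions not given. The authors' deposited comparison tables hold log2 fold changes and adjusted p-values, per the file headers. Counts were tested here with edgeR 4.0.16 (R 4.3.3; quasi-likelihood F test after filterByExpr by group, with TMM scaling; p-values adjusted by Benjamini-Hochberg over all genes tested; threshold 0.05). Pooled H9 clones were fitted as 1 group, single clones in a model of 3 groups and differences between lines in a model of 5 groups. SE is the absolute log2 fold change over the square root of F, and its 95% intervals are normal intervals from that SE. DESeq2 1.42.0, other scaling and filters, a replicate block and leaving out each library were alternatives. Single-library intervals are exact 95% binomial (Clopper-Pearson) ones and, like the limit of 3 counts, cover counting error only. Between replicates, chi-square per gene was 1.83 to 5.94 over 15 pairs, above counting error in each pair. On simulated counts edgeR recovered 88% of genes changed by 1 on the log2 scale in the H1 comparison of 14744 genes. It recovered 92% in the pooled H9 comparison of 15275 genes and 78% in the difference between lines over 15568 genes. These counts were drawn with the spread that edgeR fitted to the data. The largest change of the 10 genes in H1 was 0.52 (LEFTY2), and changes below 1 were not simulated, so recovery of such changes is not known. The 10 genes and the role and marker lists were chosen with earlier results of these data known. Beyond the 10 genes and ZNF263, the text names per role list and line up to 4 genes that passed, by adjusted p, always SMAD2, SMAD3, SMAD4, ACVR2A, ACVR2B, NANOG, CER1, INHBA and FST, and the 5 genes most like NODAL and TDGF1. Some genes that this rule would name are not reported here. The genes at 0 were named after their values were seen. Promoter coordinates are those of RefSeq GRCh38.p14 and not of the hg19 counting.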

Additional observations from a re-analysis of the deposited data

Results flagged for a closer look

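The knockout effect differed between H9 and H1 for 6 of the 10 genes and for 8 of the 41 other pathway genes tested. This was edgeR's quasi-likelihood test of the difference of log2 fold changes, with Benjamini-Hochberg adjustment. Of all 15802 genes, 9.21% passed, 5.21% with a more positive and 4% with a more negative effect in H9. Among the 10, the difference (H9 minus H1) was 1.02 for NODAL, 1.00 for LEFTY1, 0.95 for GDF3, 0.20 for TDGF1, 0.55 for SKIL and -0.54 for ACVR1B. Among the other pathway genes it was 0.54 for INHBE, 0.70 for FST, 0.30 for NEDD4L, 1.88 for FOXA2 and 0.41 for CTGF. EOMES (2.37), MIXL1 (1.94) and T, or brachyury (3.29), passed as well, and none of these 3 did without 9-1 library 3 and 9-D library 1 (differences of 0.66, 0.98 and 2.25, with edgeR adjusted p of 0.447, 0.0518 and 0.0936). EOMES and MIXL1 did not pass in DESeq2 (adjusted p = 0.313 and 0.262). In H1 clone 1-10, T had only 1 to 2 counts per library.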

How the results depend on the processing

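With both H9 clones together, the count of the 10 genes past the threshold was 8 to 9 over all alternatives run, and NODAL, LEFTY1, LEFTY2, GDF3, TDGF1, FOXH1, SKIL and ACVR1B passed in each. Of all genes, edgeR called 4574 of 15411 (29.7%) with all libraries and 3486 to 4903 without 1 library each. In clone 9-1, FOXH1 lost its call without wild-type replicate 2 (edgeR adjusted p = 0.124), 9-1 replicate 2 (0.069) or 9-1 replicate 3 (0.121), and TGFBR1 gained one without wild-type replicate 1 (0.0325). In 9-D, TGFBR1 lost its call in DESeq2 (adjusted p = 0.0732), with only the 6 libraries compared (0.0682) and in 6 of 9 fits without 1 library (edgeR adjusted p up to 0.27).

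In H1, DESeq2 called 1210 genes and 1 of the 10, and edgeR without 1 library each called 949 to 2100 genes and 0 to 4 of the 10. With all libraries edgeR called 1827 of 14897 genes (12.3%) and 2 of the 10. Between the H9 clones, edgeR without 1 library each called 25 to 53 genes and 0 to 1 of the 10, and with all libraries 47 of 15411 genes (0.305%). Signs near 0 were not stable. With reads of the LEFTY genes summed, the H1 value of LEFTY1 became 0.23. In the difference of 9-D from 9-1, GDF3 was -0.0022 with no filter on low counts and -0.00647 in DESeq2. Without 1 library each, the H1 log2 fold change was -0.0626 to 0.0669 for FOXH1, -0.0696 to 0.0947 for GDF3, -0.14 to 0.0385 for LEFTY1 and -0.0256 to 0.15 for SMAD7. SMAD7 was -0.0314 to 0.11 in 9-D, and GDF3 -0.00582 to 0.19 between wild types. Between the H9 clones the ranges were -0.0472 to 0.0336 for ACVR1B, -0.17 to 0.22 for GDF3, -0.0476 to 0.27 for LEFTY2, -0.0426 to 0.40 for NODAL, -0.17 to 0.037 for SKIL and -0.0934 to 0.0456 for TGFBR1. The cause of these changes was not tested. With the reads summed, the LEFTY genes differed between lines by 0.66 (edgeR adjusted p = 0.00129).

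Libraries with the same replicate number were at most weakly alike in their deviations from group means. In H1 these correlated at 0.03 to 0.08 for the 3 same-numbered pairs and at -0.08 to 0.04 for the 6 other pairs. In H9 the values were -0.04 to 0.06 for the 9 same-numbered pairs and -0.06 to 0.05 for the 18 others. Whether the numbers mark a shared culture or day is not given by the labels. With a replicate block, edgeR called 2926 of the same 14897 genes in H1 (1473 higher, 1453 lower), against 1827 without it. Of the 10 it called 4, adding TDGF1 (adjusted p = 0.00269) and SKIL (0.0113), and GDF3 turned to -0.00057. The block called 9 of the 10 in the pooled H9 comparison and 7 in the difference between lines, where FOXH1 passed (adjusted p = 0.0371). The shares of all genes called with the block in these comparisons are not reported here, so these counts stand without a background. Between wild types, TGFBR1 lost its call (adjusted p = 0.0779).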
